A study of Homo sapiens with 4 samples.

Results

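The Sprouty and SPRED genes code for feedback inhibitors of receptor tyrosine kinase signalling, and their mRNA was measured in Hs746T gastric carcinoma cells after inhibition or knockdown of the receptor MET. The genes were chosen by name, as the human Sprouty genes SPRY1, SPRY2, SPRY3 and SPRY4 and the Sprouty-related genes SPRED1, SPRED2 and SPRED3, and every expression probe that names one of them was used. The choice was made with earlier results of these data known. Of these 7 genes, 6 had a probe, with 8 probes of 34127 in all, and SPRED3 is not analysed here. Labelled complementary RNA made from total RNA was hybridised to 4 single-colour Agilent human arrays, 1 for each condition. The conditions were DMSO, which is the vehicle control, the MET kinase inhibitor PHA665752, sc siRNA, which is the scrambled control, and MET siRNA, for which the study's text names a single sequence. Hs746T is an established line in which MET is both amplified and lacks exon 14, so the receptor is active without added ligand in the untreated cells. The inhibitor is set against DMSO, and MET siRNA against sc siRNA. The controls were compared with each other as a yardstick, so sc siRNA over DMSO shares an array with each of the other comparisons.

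Sprouty and SPRED proteins are classical negative feedback regulators. A growth factor receptor such as MET switches on RAS and, through a chain of kinases, ERK, ERK signalling raises the transcription of several Sprouty genes, and the proteins then dampen the same cascade at the level of the receptor adaptors or further down. Sprouty proteins bind adaptors and ubiquitin ligases such as GRB2 and CBL, whereas SPRED proteins bring the RAS GTPase-activating protein neurofibromin (NF1) to the membrane. Their mRNA, together with that of phosphatases such as DUSP6, is widely used as a readout of the output of the cascade.

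The signal of a probe is the processed intensity of its spot, and ratios are differences of log2 signal after each array was scaled to its 75th percentile. Past 2-fold means a log2 ratio above 1 in size. There were no replicate arrays, so no test was made, no p-value is given, and precision is limited by having so few arrays. The SD between spots of one probe was estimated on each array from probes of like signal that were spotted 10 times. The ± value of a ratio combines the SDs of its 2 arrays, as the square root of the sum of their squares. Differences between cultures are not covered by these values. All 8 Sprouty and SPRED probes were spotted once. The 75th percentile lay at a signal between 831 and 990.1, between 61.1% and 68.2% of probes were well above background, and the share of spots marked as outliers was 5.58% under MET knockdown against 1.69% to 2.21% on the other arrays.

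The MET siRNA label was checked on the mRNA of its target, which does not by itself check the labels of the other arrays. MET had a signal of 221451 with DMSO, 100492 under PHA665752, 190010.0 with sc siRNA and 77854 under MET knockdown. Its log2 ratio was -1.33 for MET siRNA over sc siRNA, 0.03 for sc siRNA over DMSO, and -0.93 for PHA665752 over DMSO, where the last passed 2-fold in 3 of 9 alternative ways of processing. The epithelial markers EPCAM, KRT8, KRT18 and KRT19 were well above background on all 4 arrays, while CDH1 was dim, at signals of 10.4 to 33.0, and not well above background under MET knockdown. Of the mesenchymal markers, CDH2 (3552 to 4223) and FN1 were well above background on all arrays, and VIM had outlier marks on both siRNA arrays. FN1 was measured at 1061 with DMSO, 3564 after PHA665752, 770 for sc siRNA and 1107 for MET siRNA, a log2 ratio of 1.96 for the inhibitor and 0.48 for the knockdown, and its part in the results below was not tested. Among markers of blood and endothelial cells, CD3E was not well above background on any array. PTPRC (22.7 to 37.8) and CD14 (113 to 140) were dim. PECAM1 was measured at 1846 with DMSO, 304 under PHA665752, 1039 with sc siRNA and 791 under MET knockdown, and the part of this difference in the results below was not tested.

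The stretches upstream of SPRY2, SPRED1 and SPRED2 are shown first. Each of these genes had ratios below 0 with both treatments, as did SPRY4 on its brighter probe and SPRY1 with its outlier marks ignored. The ETS factors ETV4 and ETV5 and the AP-1 factor FOSL1 are transcribed in response to ERK, so their motifs were sought. The sequences are the 250 bases before the outermost listed start of each gene, from RefSeq on GRCh38.p14, written 5′ to 3′ on the gene's own strand. Capitals mark matches to the ETS core AGGAAG on either strand, so that a match on the opposite strand reads CTTCCT. SPRY2 lies at chr13:80341127-80341376 on the minus strand, SPRED1 at chr15:38252586-38252835 on the plus strand and SPRED2 at chr2:65432600-65432849 on the minus strand.
SPRY2: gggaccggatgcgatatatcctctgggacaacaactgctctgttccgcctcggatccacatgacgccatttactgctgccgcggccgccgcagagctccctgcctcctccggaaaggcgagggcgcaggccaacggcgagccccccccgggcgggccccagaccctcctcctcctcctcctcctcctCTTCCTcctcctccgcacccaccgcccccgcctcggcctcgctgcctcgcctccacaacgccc
SPRED1: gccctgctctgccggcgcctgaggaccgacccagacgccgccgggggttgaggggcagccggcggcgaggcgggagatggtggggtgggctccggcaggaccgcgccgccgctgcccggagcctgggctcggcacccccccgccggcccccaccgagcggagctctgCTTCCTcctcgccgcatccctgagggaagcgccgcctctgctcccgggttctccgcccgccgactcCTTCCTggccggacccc
SPRED2: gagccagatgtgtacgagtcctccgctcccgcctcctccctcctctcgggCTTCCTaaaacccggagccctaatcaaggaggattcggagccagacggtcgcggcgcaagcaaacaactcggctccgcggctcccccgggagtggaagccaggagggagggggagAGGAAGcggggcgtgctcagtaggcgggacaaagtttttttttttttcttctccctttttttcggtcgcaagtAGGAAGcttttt
SPRY2 held 1 match, whose first base lay 63 bases before the start. SPRED1 held 2, at 83 and 17 bases, and SPRED2 held 3, at 200, 85 and 12 bases. The core AGGAAG was present in 28.7% of the 35116 listed upstream stretches of this length, so a match by itself is common. The longer ETS motif CCGGAAG, whose GGAAG follows a C and not an A, the AP-1 motif TGANTCA and the cyclic AMP response motif TGACGTCA had no match in these 3 stretches. Over all listed stretches they were present in 8.52%, 6.57% and 1.65%. The GC content was 70.4% for SPRY2, 78.4% for SPRED1 and 58.8% for SPRED2, against a median of 58% over all stretches. The outermost stretches of SPRY1 and SPRY3 held 0 and 2 matches to AGGAAG and none to the other motifs. SPRY3 had a ratio above 0 under PHA665752. A further listed start of SPRY1, which lies 1591 bases inside the gene, had 1 match to CCGGAAG at 67 bases and 1 to AGGAAG at 215 bases before it. The further listed starts of SPRY2, SPRY3 and SPRED2 had matches to AGGAAG only. These lay at 104 and 245 bases for SPRY2, 219 for SPRY3 and 192 for SPRED2. The only stretch listed for SPRY4 lies 774 bases inside the gene as listed, so it is not printed, and it held none of the 4 motifs. Binding was not measured, whether matches go with the ratios was not tested, and a match is a property of the letters only.

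Under PHA665752, 3 of the 5 genes that had a ratio fell past 2-fold, against 7.95% of all 14811 genes with a ratio, and none rose past 2-fold, against 13.1% of all genes. SPRY4, read on the brighter of its 2 discordant probes, fell most, followed by SPRED2 and SPRY2. In a bulk extract, fewer cells that express a gene and less of its RNA per cell cannot be told apart. The median over the 5 genes was -1.28, beside 0.076 over all genes. Under MET knockdown, 1 of the 5 genes, SPRY4, fell past 2-fold, against 0.702% of 13810 genes, and none rose, against 2.04%. All 5 ratios were below 0, with a median of -0.51 beside -0.017 over all genes. Between the controls, 0 of 6 genes passed 2-fold in either direction, against 3.98% of 14815 genes (1.15% lower and 2.83% higher), and the median was -0.073 beside -0.0099.

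**Figure D1:**
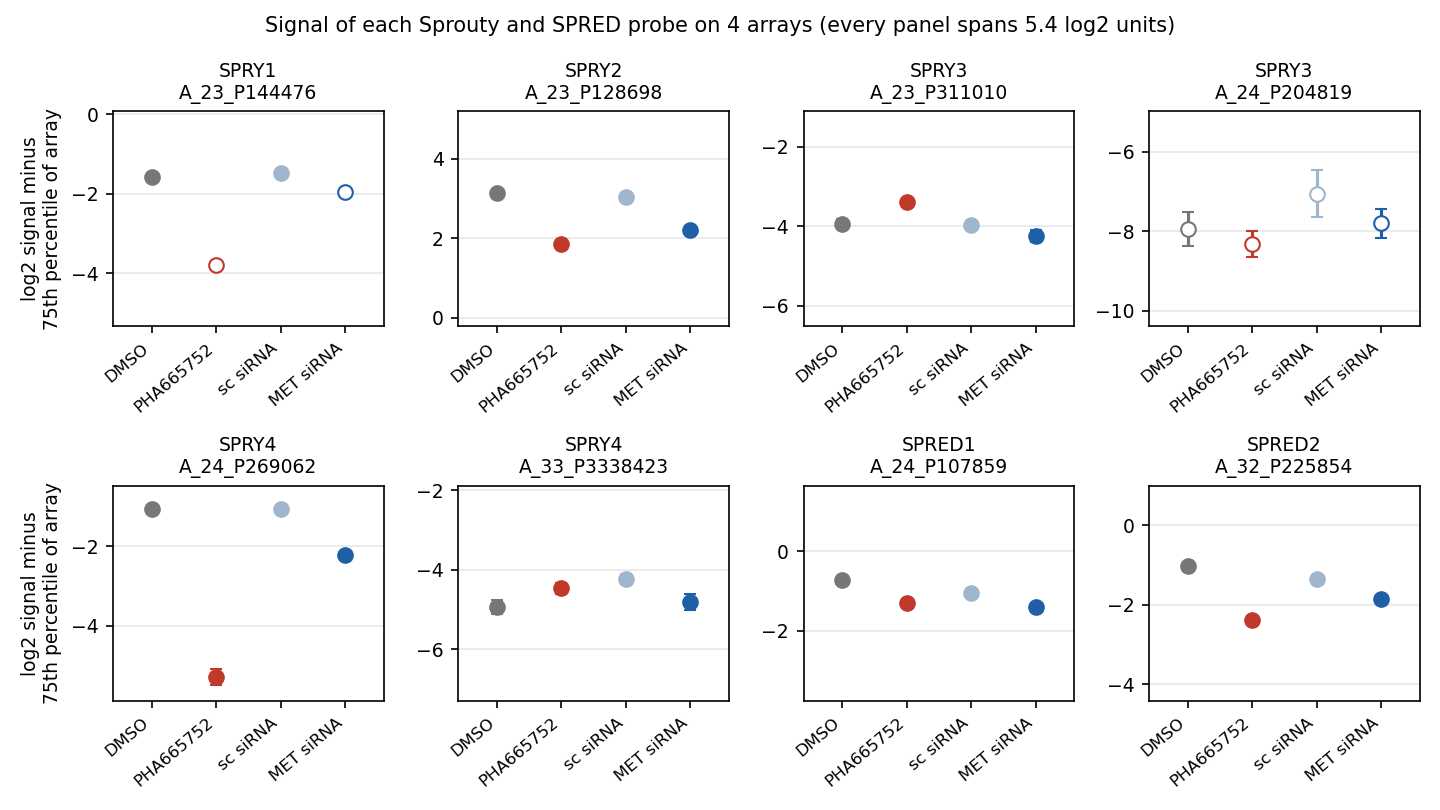
Normalised log2 signal, relative to each array's 75th percentile (vertical axis, log2 units), for each of the 8 Sprouty and SPRED probes on the 4 arrays. Points are single arrays, bars are the SD between spots of one probe, and open points mark probes not well above background or marked as outliers. The PHA665752 point is the lowest of its panel for SPRY1, SPRY2, SPRED2, the first SPRY4 probe and the second SPRY3 probe, which is at background, and the highest for the first SPRY3 probe, while the panels' levels cannot be set against each other because they belong to different probes.

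SPRY4, a Sprouty protein induced by growth factor signalling, had 2 probes, which gave different pictures. The brighter probe, A_24_P269062, had signals of 475 with DMSO, 21.7 under PHA665752, 399 with sc siRNA and 185 under MET knockdown. Both treated arrays were below both control arrays, and the controls lay close together. The log2 ratio was -4.24 ± 0.21 for PHA665752 over DMSO, an 18.8-fold fall that left 5.31% of the signal. This ranked 14 from the lowest of 14811 genes. The signal under PHA665752 was close to the lower end of what the array could measure, since the dimmest probe well above background there had a signal of 12.3. The unprocessed spot had a median of 57 over a local background of 31, against 480 over 28 with DMSO. With normexp background correction followed by quantile normalization the ratio was -2.55, which kept the direction and the call. For MET siRNA over sc siRNA the ratio was -1.16 ± 0.092, a 2.23-fold fall to 44.9%, which ranked 65 from the lowest of 13810 genes. The ratio between the controls was 0.0020 ± 0.087.

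The second SPRY4 probe, A_33_P3338423, is assigned to the same transcript record and was dim but well above background on all arrays. Its signals were 32.2 with DMSO, 38.5 under PHA665752, 43.9 with sc siRNA and 30.5 under MET knockdown. The treated arrays therefore did not separate from the controls. The log2 ratios were 0.47 ± 0.22 under PHA665752, -0.57 ± 0.24 under MET knockdown and 0.70 ± 0.22 between the controls, so the treatment ratios were no larger than the difference between controls. The positions of the probes in the transcript are not used here, and which of them follows the SPRY4 transcript better was not tested. With the median over both probes the SPRY4 ratios were -1.88 under PHA665752 and -0.86 under MET knockdown, and the latter no longer passed 2-fold.

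SPRY2, which binds CBL and GRB2 and is the best studied Sprouty in epithelial cells, had signals of 8663 with DMSO, 3067 under PHA665752, 6792 with sc siRNA and 3933 under MET knockdown. It was far above background throughout, so its ratios had the smallest spot noise of the genes. The treated arrays were the lowest pair. PHA665752 left 41.1% of the DMSO signal, a log2 ratio of -1.28 ± 0.072 and a 2.43-fold fall, and 5.14% of all genes had a lower ratio. MET siRNA left 56.1%, a ratio of -0.84 ± 0.070, and 1.17% of genes lay below it. Although the ratio under MET knockdown was the smaller in size, its place among all genes was nearer the low end. The controls differed by -0.098 ± 0.069.

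SPRED2, which recruits NF1 to the membrane, had signals of 485 with DMSO, 163 under PHA665752, 326 with sc siRNA and 237 under MET knockdown. The ratio was -1.36 ± 0.092 under PHA665752, a 2.56-fold fall to 39.1%, and differed from that of SPRY2 by less than the spot noise. Under MET knockdown the ratio was -0.51 ± 0.090, leaving 70.3%, with 4.26% of genes below it. The control arrays themselves differed by -0.32 ± 0.088 for SPRED2, so the MET siRNA ratio was the larger of these in size, while both had the same sign.

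SPRED1, the family member whose loss causes Legius syndrome, had signals of 603 with DMSO, 348 under PHA665752, 399 with sc siRNA and 325 under MET knockdown. Its ratio was -0.58 ± 0.086 under PHA665752, with 66.9% left, and 17.2% of genes had a lower ratio. Under MET knockdown it was -0.34 ± 0.088, with 78.9% left. Neither ratio passed 2-fold, and the ratio between the controls, -0.34 ± 0.087, was of the same size as that under MET knockdown.

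SPRY3 is the least characterised Sprouty gene. Its brighter probe, A_23_P311010, had signals of 64.7 with DMSO, 81.4 under PHA665752, 52.6 with sc siRNA and 45.3 under MET knockdown. The ratios were 0.54 ± 0.15 under PHA665752, -0.26 ± 0.20 under MET knockdown and -0.048 ± 0.16 between the controls. SPRY3 was thus the only one of the 5 genes with a ratio above 0 under PHA665752, on a dim probe and within 2-fold. Its second probe, A_24_P204819, had signals of 2.66 to 6.23, was not well above background on any array and gave no ratio.

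SPRY1, a Sprouty protein known from kidney development where it restrains RET signalling, had signals of 331 with DMSO, 62.0 under PHA665752, 297 with sc siRNA and 222 under MET knockdown. The software marked the spot as a background outlier on both treated arrays, so it had no ratio there and is not among the 5 genes counted above. The ratio between the controls was 0.094 ± 0.091. The spot itself was well above background on all 4 arrays, with raw medians of 351, 99, 317.5 and 258 over local backgrounds of 31 to 35.5. With the marks ignored, the ratio was -2.21 ± 0.12 under PHA665752, a 4.61-fold fall to 21.7%, and -0.47 ± 0.092 under MET knockdown. Counted in this way, 4 of 6 genes fell past 2-fold under PHA665752, where 8.08% of all genes did so.

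**Figure D2:**
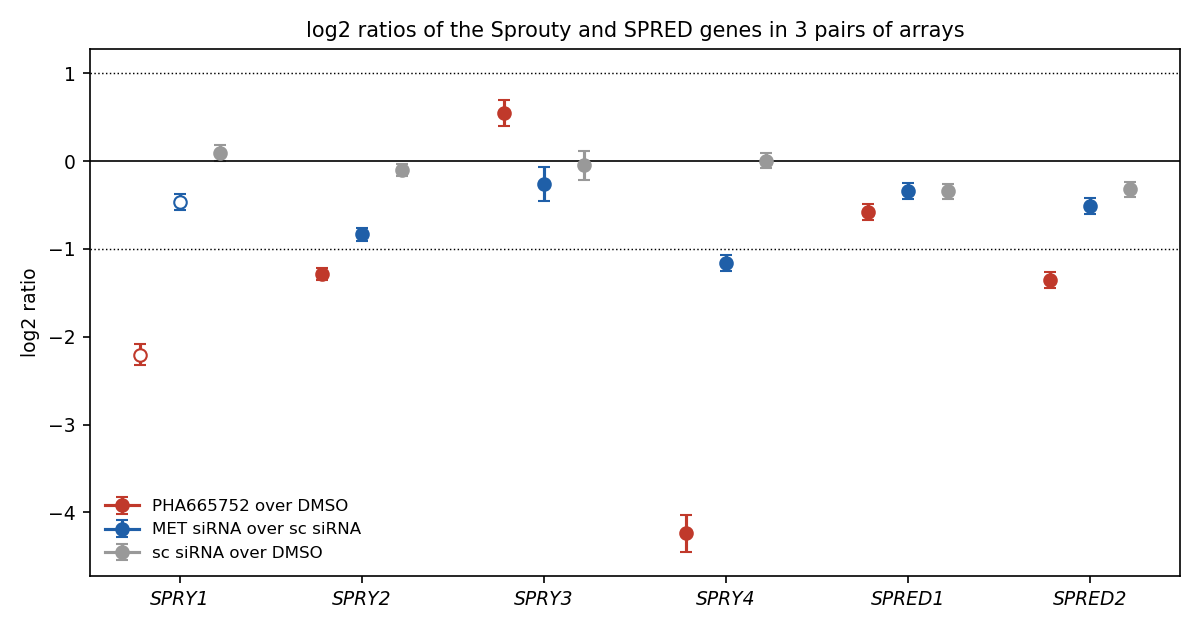
Log2 ratios (vertical axis, log2 units) of the brightest probe of each gene in 3 pairs of arrays, with bars of 1 SD between spots, combined over both arrays of the pair. Open SPRY1 points were computed with the outlier marks ignored, and dotted lines mark 2-fold. SPRY4, on its brighter probe, stands lowest in both treatment comparisons, at -4.24 and -1.16, and no sc siRNA over DMSO point leaves the range of -0.34 to 0.094.

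The order of the ratios was compared between treatments for the 5 genes, which uses no shared array. Under PHA665752 the order from the lowest was SPRY4, SPRED2, SPRY2, SPRED1 and SPRY3, and SPRED2 and SPRY2 did not differ beyond spot noise. Under MET knockdown it was SPRY4, SPRY2, SPRED2, SPRED1 and SPRY3, and SPRED1 and SPRY3 did not differ beyond it. For SPRY4, SPRED2, SPRY2 and SPRED1 the inhibitor ratio was below the siRNA ratio, with a difference of -3.08 for SPRY4, -0.85 for SPRED2, -0.45 for SPRY2 and -0.24 for SPRED1 on the log2 scale. For SPRY3 the difference was 0.81. The SPRY4 difference rests on the dim reading of its brighter probe, and was -1.62 with normexp and quantile normalization and -1.02 with the median over both probes. Scaling to the median of the probes well above background gave differences of -0.64 for SPRED2, -0.24 for SPRY2 and -0.034 for SPRED1. Scaling to the 50th percentile gave -1.06, -0.66 and -0.45. The percentages that follow depend on the scaling too. On the log2 scale the siRNA ratio amounted to 65.1% of the inhibitor ratio for SPRY2, 58.7% for SPRED1, 37.5% for SPRED2 and 27.3% for SPRY4 on its brighter probe. Over all genes, 2.74% passed 2-fold in either direction under MET knockdown against 21% under PHA665752, and whether the family differs from other genes in this respect was not tested.

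The other genes of the pathway were taken from 4 lists, which were also drawn up with earlier results of these data known. The first held 13 other feedback inhibitors, namely dual-specificity phosphatases that inactivate MAP kinases, ERRFI1 and LRIG proteins, which restrain receptors, and similar genes. Under PHA665752, 4 of 13 fell past 2-fold, against 7.95% of all genes, and 2 rose, which is near the 13.1% of all genes. The median of the list was -0.31 or lower, since it is the value of DUSP7, a bound whose side of 2-fold is not settled. DUSP6, the cytoplasmic ERK phosphatase, fell from 8950 to 802, a ratio of -3.27, and from 7699 to 3597 under MET knockdown, a ratio of -1.14. It was the 1 of 12 genes in this list with a ratio that fell past 2-fold under MET knockdown, and none rose. Over all genes the shares were 0.702% and 2.04%. ERRFI1, which inhibits EGFR family receptors, had ratios of -2.31 and -0.67. The nuclear phosphatases DUSP4 (-2.07 and -0.74) and DUSP5 (-1.96 and -0.87) also fell past 2-fold under PHA665752 alone, and DUSP4 differed between the controls by 0.52. The 2 that rose, named here after their values were seen, were the ubiquitin ligase CBLB at 2.05 and the FGF receptor antagonist IL17RD at 1.57. Under MET knockdown their ratios were 0.46 and 0.76, and between the controls 0.97 and -0.073. With the median over its probes, CBLB had a PHA665752 ratio of 1.47. Between the controls, 0 of 13 passed 2-fold, against 3.98% of all genes.

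The second list held 13 genes known to be transcribed in response to ERK. Under PHA665752, 10 fell past 2-fold and 1 rose, against 7.95% and 13.1% of all genes. The median of the list was -1.62. The ETS factor ETV5 had signals of 707 with DMSO, 59.0 under PHA665752, 490 with sc siRNA and 321 under MET knockdown, and ratios of -3.37 and -0.66. ETV4, another ETS factor, was measured at 120 with DMSO and was not well above background under PHA665752, so its log2 ratio was -3.07 or lower, and its MET siRNA ratio was -0.64. CCND1, which codes for cyclin D, had ratios of -1.62 and -0.21. EGR1, an immediate early transcription factor, was the gene that rose, from 617 to 4094 under PHA665752, a ratio of 2.94, beside 0.085 under MET knockdown and 0.84 between the controls. Under MET knockdown, 2 of 13 fell past 2-fold and none rose, against 0.702% and 2.04% of all genes, and the median of the list was -0.61. The 2 that fell were the receptor EPHA2, with -1.10 after -3.36 under PHA665752, and the EGFR ligand AREG, with -1.29 after -1.37. Between the controls 1 of 13 passed 2-fold, against 3.98% of all genes. It was PHLDA1, at -1.01, which was named after its value was seen. SPRY2 and SPRED2 lay above the median of this list, -1.62.

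**Figure D3:**
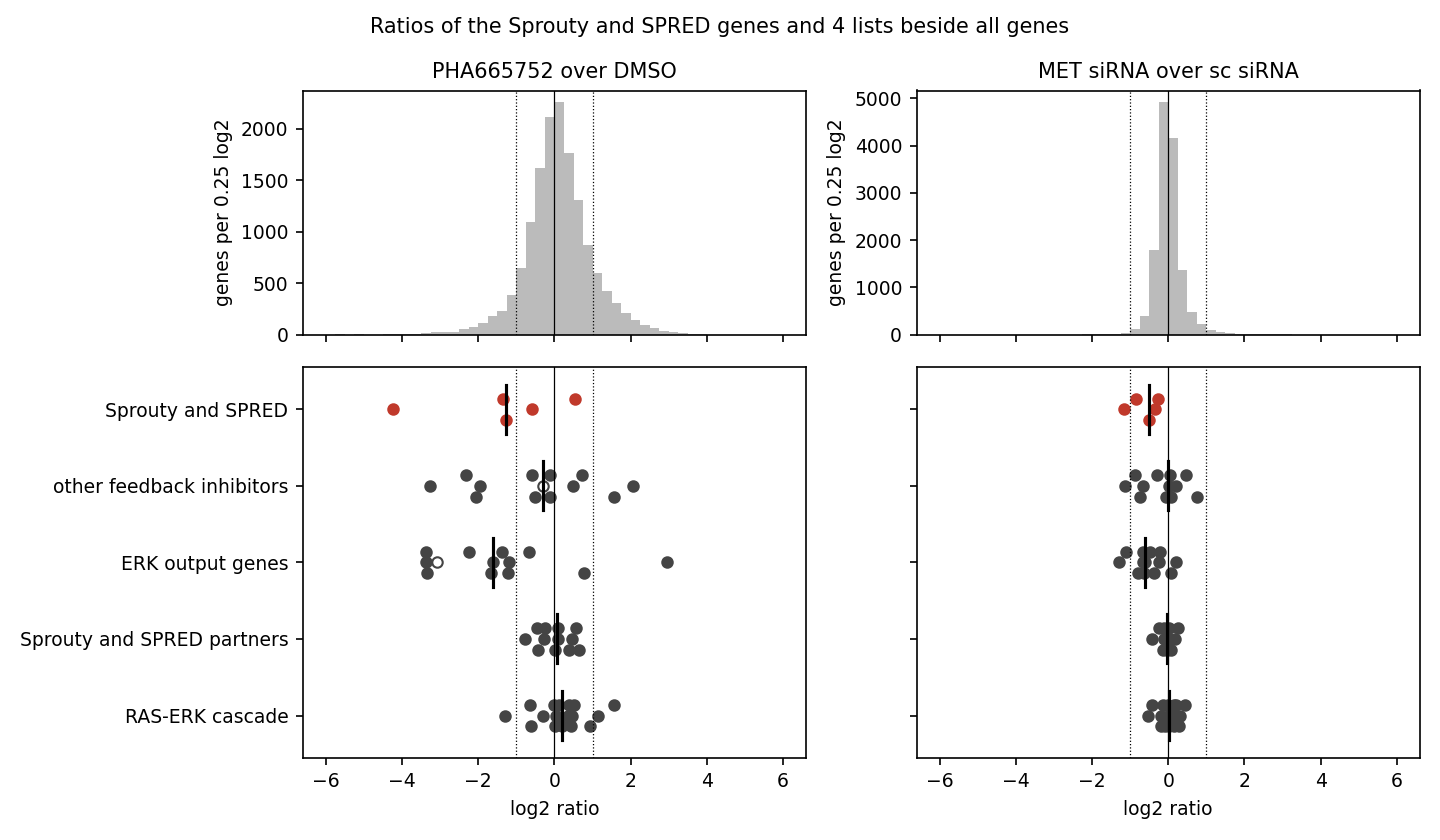
Upper panels give the number of genes per 0.25 log2 units of ratio for all genes, and lower panels the ratio of each Sprouty and SPRED gene (red) and of each gene of 4 lists (grey) on the same horizontal axis in log2 units. Vertical bars are medians, open points are bounds, and dotted lines mark 2-fold. The Sprouty and SPRED median lies at -1.28 under PHA665752 and -0.51 under MET knockdown, between those of the ERK output genes (-1.62 and -0.61) and the other feedback inhibitors (-0.31, itself a bound, and -0.016).

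The third list held 12 proteins that Sprouty and SPRED proteins bind or that modify them. None passed 2-fold in any of the 3 comparisons, other than SIAH2 under PHA665752 where arrays were scaled to the 50th percentile (-1.03). Over all genes the shares past 2-fold were 21% under PHA665752, 2.74% under MET knockdown and 3.98% between the controls. The median of the list was 0.056 under PHA665752 and -0.036 under MET knockdown. The lowest ratio under PHA665752 was that of SIAH2, a ubiquitin ligase for SPRY2, at -0.78, and the highest that of CAV1, the caveolin that binds Sprouty proteins, at 0.64. Under MET knockdown the largest were PTPN11, the phosphatase SHP2, at -0.41 and TESK1, a kinase bound by SPRY4, at 0.25. The fourth list held 17 members of the cascade from the adaptors to ERK. Under PHA665752, 1 of 17 fell and 2 rose past 2-fold, with a median of 0.21. These counts are near the shares over all genes, 7.95% lower and 13.1% higher. Under MET knockdown and between the controls none of 17 passed 2-fold. MAP2K1, which codes for a MEK kinase that activates ERK, fell by 1.29 on the log2 scale, and its ratio under MET knockdown was -0.44. The RAS-related GTPase MRAS rose by 1.57, beside 0.43 under MET knockdown. RRAS, named after its value was seen, rose by 1.15, which scaling to the 50th percentile brought within 2-fold. NRAS had ratios of -0.64 and -0.52.

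For each Sprouty and SPRED gene well above background on all 4 arrays, the genes of nearest pattern were sought among 13073 others, by the root mean square difference of centred log2 values over the 4 arrays. LRATD2 (0.0216) and PKIA (0.0514) were nearest to SPRY2, and LRP8 (0.0173) and ADRA1B (0.0331) to SPRED2. MFSD2A (0.160) and DSCAM (0.165) were nearest to SPRY4, whose pattern had no neighbour as close as those of the other genes. GLTP (0.0104) and CNOT8 (0.0175) were nearest to SPRED1, and CLK2 (0.0151) and FIG4 (0.0183) to SPRY3. Of the other family members, SPRED2 ranked 18 among the nearest to SPRY2, at 0.119, and SPRED1 ranked 1551, at 0.351. SPRY3 ranked 9449, at 0.736, and SPRY4 ranked 12632, at 1.27, so the family did not share 1 pattern. With only 4 arrays, the genes named as nearest describe likeness on these arrays only.

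**Figure D4:**
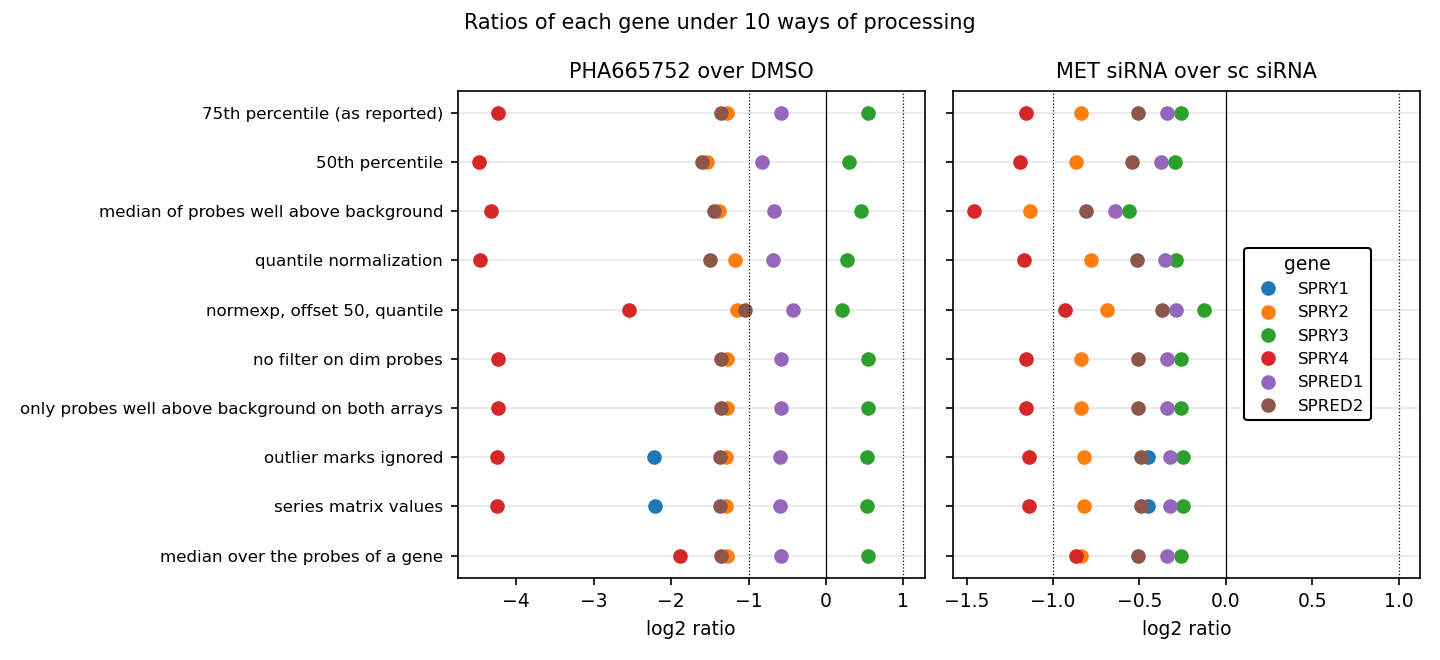
Log2 ratio (horizontal axis, log2 units) of the Sprouty and SPRED genes under the processing reported and 9 alternatives, 1 per line, for both treatments. Dotted lines mark 2-fold, and SPRY1 has a value only where outlier marks were not used. SPRY4 ranges from -4.48 to -1.88 under PHA665752 and from -1.46 to -0.86 under MET knockdown, and SPRY3 is the only gene above 0 under PHA665752 on each line.

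The ratios were recomputed under 9 alternatives, which are plotted by gene. Under PHA665752, SPRY4, SPRY2 and SPRED2 fell past 2-fold under each alternative, SPRED1 ranged from -0.83 to -0.43 and SPRY3 from 0.21 to 0.54. The share of all genes that fell past 2-fold ranged from 5.30% to 12.2%. Under MET knockdown the ratios of SPRY2, SPRY3, SPRY4, SPRED1 and SPRED2 stayed below 0 under each, but the count past 2-fold ranged from 0 to 2. There the share of all genes that fell past 2-fold ranged from 0.113% to 2.02%. SPRY2 passed 2-fold, at -1.14, where arrays were scaled to the median of the probes well above background, a scaling that lowers the median ratio of all genes by 0.30. SPRY4 fell short of it, at -0.93, with normexp and quantile normalization together.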

How the data were processed

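Total RNA of Hs746T cells was measured on 4 single-colour arrays, 1 per condition, on a single slide, so slide and scan do not separate the conditions. Scanner files from Feature Extraction (11.5.1.1 per the file headers) were deposited by the authors, in which each processed intensity is background-subtracted and detrended on a linear scale, with no normalization between arrays. A deposited value table holds the same intensity within 0.05 for probes spotted once and served as an alternative. How much PHA665752 the arrayed cells received, and for how long, is not given in the sources used here.

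Controls and spots that carried a feature or background outlier mark were removed, the log2 intensity of a probe's spots was averaged (33128 probes had 1 spot and 999 had 10), and each array's 75th percentile was subtracted. A probe well above background on 1 array of a pair gave a bound against the dimmest probe well above background. Where that bound did not leave the brighter array higher, the probe gave no ratio. A probe well above background on neither array gave no ratio either. Of the probes, 75.5% (25771, for 19740 genes) were named through RefSeq accessions or symbols (GRCh38.p14 table, used for names and upstream sequences, as the array was annotated on another build). The probe with a value on the most arrays stood for its gene, and among equals the one with the highest mean signal. Past 2-fold is a log2 ratio or bound over 1 in size. Spot SDs came from probes spotted 10 times, with at least 5 usable spots and a signal within 2-fold.

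The genes and lists were chosen with earlier results of these data known. Named were all Sprouty and SPRED genes, MET, DUSP4, DUSP6, ETV4, ETV5, EGR1 and CCND1, the genes of each list past 2-fold in 1 direction with both treatments, the 2 largest ratios of each list per treatment, and the 2 genes of nearest pattern. DUSP5 also met the rule, and NF1 is named as background only. The 9 alternatives changed the percentile, the scaling, the background correction and scaling together (normexp with an offset of 50 in limma, then quantile normalization), the filter on dim probes, the outlier marks, the source of the values or the probe rule. The rules for ratios and bounds were first tested on simulated arrays with known changes. Python 3.11.15, numpy 2.4.6, pandas 2.3.3, matplotlib 3.10.9, R 4.3.3 and limma 3.58.1 were used. Some items of the marker and pathway lists are not reported here by name.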

Additional observations from a re-analysis of the deposited data

How the results depend on the processing

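No paired analysis was possible because each condition had 1 array, and leaving out an array was not possible for the same reason. With PHA665752 the count of Sprouty and SPRED genes past 2-fold was 3 under 7 alternatives and 4 with the outlier marks ignored or the deposited value table, where SPRY1 gained a ratio (-2.21). The median over the genes moved from -1.28 to -1.53 with the 50th percentile and to -1.04 with normexp background correction followed by quantile normalization (called normexp with quantile below). With MET siRNA the count of 1 became 2 with scaling to the median of the probes well above background, 0 with normexp with quantile and 0 with the median over all probes of each gene. The share of all genes lower past 2-fold was 1.74%, 0.113% and 0.686% there, against 0.702% as reported. The median over the Sprouty and SPRED genes moved from -0.51 to -0.81 with the first of these scalings and to -0.37 with normexp with quantile. Between the controls the median moved from -0.073 to -0.17 with the 50th percentile. The small control ratios of SPRY1 and SPRY4 changed sign under 2 and 4 alternatives. No ratio past 2-fold of the Sprouty and SPRED genes, or of the pathway genes given with values in the report, changed sign under the alternatives that gave a value. PECAM1, FN1 and the genes of nearest pattern were not recomputed. The cause of these moves was not tested, apart from the added ratio of SPRY1.

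Scaling moved all genes too. The 50th percentile shifted their median by -0.25 with PHA665752 and took the share of rises among the genes past 2-fold from 62.2% to 42.6%. No filter on dim probes shifted that median by 0.13. With MET siRNA, scaling to the median of the probes well above background shifted the median by -0.30 and took that share from 74.4% to 40.5%. Normexp with quantile lowered the shares of all genes past 2-fold to 5.30% lower and 6.40% higher with PHA665752, 0.113% and 0.460% with MET siRNA, and 0.311% and 1.19% between the controls. For the lists, the ERK output genes lower with PHA665752 numbered 9 to 10 and with MET siRNA 1 to 3, and the other feedback inhibitors 4 to 5 and 1 to 3. Over all genes the share lower past 2-fold ranged from 5.30% to 12.2% with PHA665752 and from 0.113% to 2.02% with MET siRNA. Dim probes limit the size of ratios, since a signal of 10.2 to 17.4 was the lowest well above background, and SPRY4 with PHA665752, both SPRY3 probes and the second SPRY4 probe were the closest to it among the Sprouty and SPRED probes.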
